A study of Mus musculus with 8 samples.

Results

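Genes of the myelin sheath were followed through the adult mouse hippocampus, 9 in all: Mbp, Mog, Mag, Mobp, Cnp, Mal, Cldn11, Opalin and Ermn. They were taken by name, and all 9 were present among the 46517 genes of the bulk RNA-seq tables and the 24051 genes of the single nucleus (sn)RNA-seq matrices. Hippocampi came from 12-week-old mice labelled as male, both hippocampi of 1 mouse per sample. The mutant genotype was Gfap-Cre;Wlsfl/- and the control genotype Gfap-Cre;Wlsfl/+, with 2 mice per genotype in each assay. Both genotypes carried the Gfap-Cre transgene, which recombines in a subset of cortical neural progenitors and their progeny, and 1 floxed allele of Wls, the gene for a chaperone of secreted Wnt proteins. The genotypes differed in the second Wls allele, which was null in mutants and wild type in controls.

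Myelin is the stack of membrane that oligodendrocytes wrap around axons, and it is built from lipids and a small set of very abundant proteins. Mbp holds the inner faces of the membrane together, Mobp is a related small basic protein of the same compartment, and Cnp keeps channels of cytoplasm open between the layers. Mog and Mag are surface proteins of the immunoglobulin family, on the outermost layer and at the layer next to the axon. Mal and Cldn11 are 4-span membrane proteins, the first a lipid-raft proteolipid and the second the claudin of the tight junctions that run through the sheath, while Opalin and Ermn are a sialylated membrane protein and an actin-linked cytoplasmic protein of mature oligodendrocytes.

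Library depth was 56002381 to 79576197 expected counts in bulk tissue, and the snRNA-seq samples held 5304 to 10460 nuclei. The targeted gene was checked first. Wls stood at 3.67 and 6.86 CPM (counts scaled to a common library total) in the 2 bulk mutants and at 13.2 and 13.03 CPM in the controls (log2 fold change -1.31 ± 0.30, SE; edgeR FDR = 0.117), and in oligodendrocyte nuclei at 0 and 11 UMIs in mutants against 34 and 226 in controls, so the libraries followed their genotype labels. The labelled sex was not borne out in bulk tissue. Xist, the RNA of the inactive X chromosome, was at 1.44 CPM in mutant replicate 1 and 1.04 CPM in control replicate 1, and at 230.0 and 518 CPM in the replicate 2 libraries, where the Y-linked Ddx3y was at 0.352 and 0.342 CPM against 54.4 and 58.3 CPM in the replicate 1 libraries. Each genotype held 1 library of either kind, so the bulk results of the 9 genes are also given within replicate number. All 4 snRNA-seq samples had low Xist (1.60 to 3.49 UPM, UMIs scaled to the sample's total as CPM are) and high Ddx3y (31.6 to 53.8 UPM). Between 8 and 21 cell barcodes were shared by any 2 snRNA-seq samples.

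To ask where the 9 genes were expressed, UMIs were summed over the nuclei of each cell type that the authors had assigned and given as UPM, here scaled to the total of each type in each sample. There were 21 types, named here as deposited (including the spelling "inhibtory"), of which 18 had at least 10 nuclei in every sample. All 9 genes had their highest level in the nuclei named oligodendrocytes, in every sample. Mbp stood there at 3756 to 4745 UPM, Mog at 1347 to 1825 UPM and Mag at 1247 to 1637 UPM. Levels of Mobp were 1040 to 1343 UPM, of Mal 945 to 1728 UPM and of Cldn11 748 to 1330 UPM. The remaining genes stood as follows, with Cnp at 316 to 645 UPM, Opalin at 357 to 481 UPM and Ermn at 158 to 312 UPM. For each gene the lowest of the 4 oligodendrocyte samples lay above the highest sample of the next type, so the first place in the order did not depend on the sample. Together the 9 genes supplied 1.11% to 1.26% of all UMIs in oligodendrocyte nuclei, with a median of 19 to 29 of their UMIs per nucleus. The label of the nuclei was checked on other cell types' markers as well. The 12 oligodendrocyte markers summed to 21403 to 24347 UPM in these nuclei, against 273 to 303 UPM for 6 astrocyte markers, 21.5 to 89.6 UPM for 6 microglia markers and 0 to 14.3 UPM for 5 endothelial markers.

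**Figure D1:**
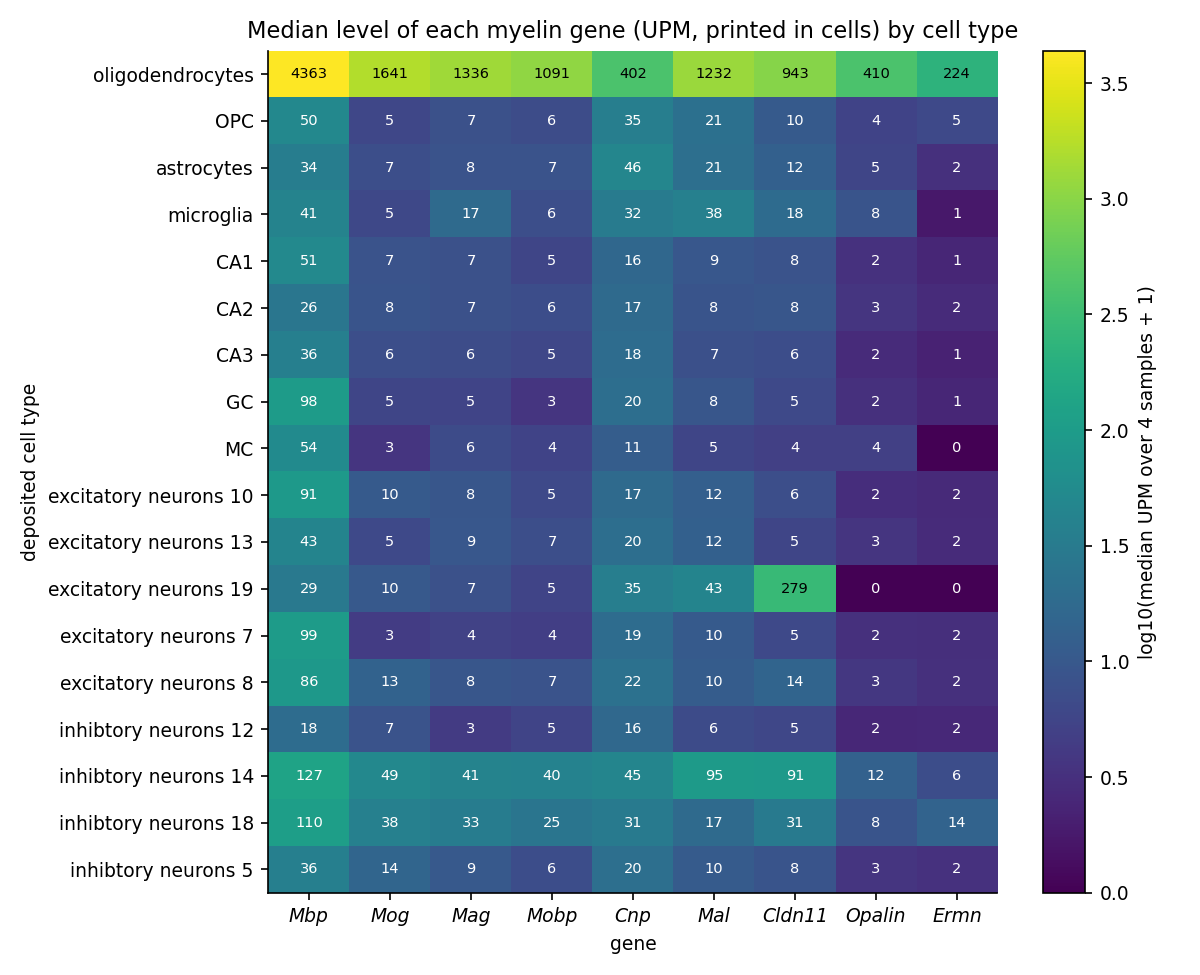
Median level over the 4 samples of each gene (columns) in each of 18 deposited cell types (rows), in UPM; the number in a cell is the median and the colour is log10 of the median + 1. The oligodendrocyte row is the brightest in every column, and the one other bright cell is Cldn11 in excitatory neurons 19, with a median of 279 UPM.

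The distance to the next type differed widely between genes. Within a sample, the oligodendrocyte level was 21.6 to 48.5 times that of the next highest type for Mobp, 19.9 to 48.4 times for Mag, 17.3 to 40.9 times for Mbp and 14.8 to 52.3 times for Mog. For Mal the ratio was 11.3 to 17.9, for Ermn 13.4 to 30.0 and for Opalin 7.85 to 49.9. The ratio was smallest for Cnp, at 4.88 to 8.62, and for Cldn11, at 2.59 to 4.51. Without nuclei of other types that held UMIs of 4 or more of the 9 genes, the ratio was 100.2 to 157.5 for Mobp, 87.7 to 128 for Mog and 53.5 to 139.6 for Mag. It was 41.1 to 91.3 for Opalin, 30.0 to 52.0 for Ermn and 36.5 to 43.3 for Mbp. For Mal it was 18.2 to 22.4 and for Cnp 4.88 to 11.8, and that of Cldn11 was the same. Those nuclei were chosen by UMIs of the same 9 genes and left out of other types only. Higher ratios were thus favoured in advance, and they are no separate measure of the distance. Astrocytes came second for Cnp by median, with 34.4 to 46.9 UPM, but their range overlapped that of the next types in the order, inhibtory neurons 14 (38.7 to 65.9 UPM), excitatory neurons 19 (0 to 80.4 UPM) and oligodendrocyte precursors (OPC, 26.7 to 42.0 UPM). Oligodendrocyte nuclei held 10.2% to 55.4% of a sample's Cnp UMIs, against 59.4% to 89.0% of its Mobp UMIs and 41.9% to 83.2% of its Cldn11 UMIs. These shares also depend on how much of a sample is oligodendrocyte nuclei, which supplied 0.530% to 4.14% of all its UMIs.

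Cldn11 stood apart in 1 other cluster. In excitatory neurons 19, a cluster of 19 to 64 nuclei per sample, it reached 252 and 262 UPM in the mutants and 295 and 421 UPM in the controls, from 12, 53, 22 and 46 UMIs. This range did not overlap the oligodendrocytes above it or inhibtory neurons 14 below it (56.4 to 99.8 UPM). In the same nuclei Mog had 0 to 2 UMIs per sample, Ermn 0 to 2 and Opalin none, which with 3 counts as the upper limit of a count of 0 allows up to 63.1 UPM in the sample with fewest UMIs. Cldn11 made up 60.2% to 79.3% of the 9 genes' UMIs there and 6.74% to 11.1% in oligodendrocytes. The name of the cluster did not match its markers. The 6 meninges markers summed to 358 to 1070 UPM there and to 6.12 to 30.4 UPM in CA1 neurons. Per sample, Dcn, a fibroblast proteoglycan, had 3 to 89 UMIs, Col1a1 3 to 22 and Col1a2 8 to 39. Slc6a13 had only 0 to 3 UMIs, Slc22a6 0 to 2 and Igf2 none. The 6 astrocyte markers summed to 686 to 1510 UPM in the cluster and to 103 to 139 UPM in CA1 neurons. In every sample their sum in the cluster was above that of the meninges markers. The 3 excitatory neuron markers summed to 21.0 to 255 UPM there and to 513 to 716 UPM in CA1 neurons, and the cluster is called here by its deposited name only.

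Mbp UMIs were also found in neurons. In granule cells (GC) it stood at 106 and 119 UPM in mutants and 89.2 and 89.6 UPM in controls, while Mog was at 3.80 to 4.83 UPM. Nuclei of other types that held UMIs of 4 or more of the 9 genes were then left out. There were 21.3 to 31.2 Mbp UMIs for each Mog UMI in granule cells and 18.1 to 41.8 in excitatory neurons 7, against 2.06 to 3.52 in oligodendrocytes. The granule cell range lacks mutant replicate 1, which had too few Mog UMIs for a ratio. Inhibtory neurons 5 had ratios of 2.16 to 3.24, which overlapped the oligodendrocyte range. In that type, however, Cnp made up 27.3% to 30.6% of the 9 genes' UMIs, against 2.74% to 5.11% in oligodendrocytes. The make-up of the 9 genes' UMIs in granule cells, excitatory neurons 19 and inhibtory neurons 5 thus differed from that in oligodendrocytes in every sample. The Cnp share was also above the oligodendrocyte range in CA1 neurons (17.3% to 25.9%) and CA3 neurons (23.9% to 29.1%). It was above that range in astrocytes (29.0% to 42.9%) and OPC (20.6% to 28.9%) as well. The Mbp locus also gives rise to longer transcripts outside the myelin-forming lineage, and gene-level UMIs do not separate them.

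**Figure D2:**
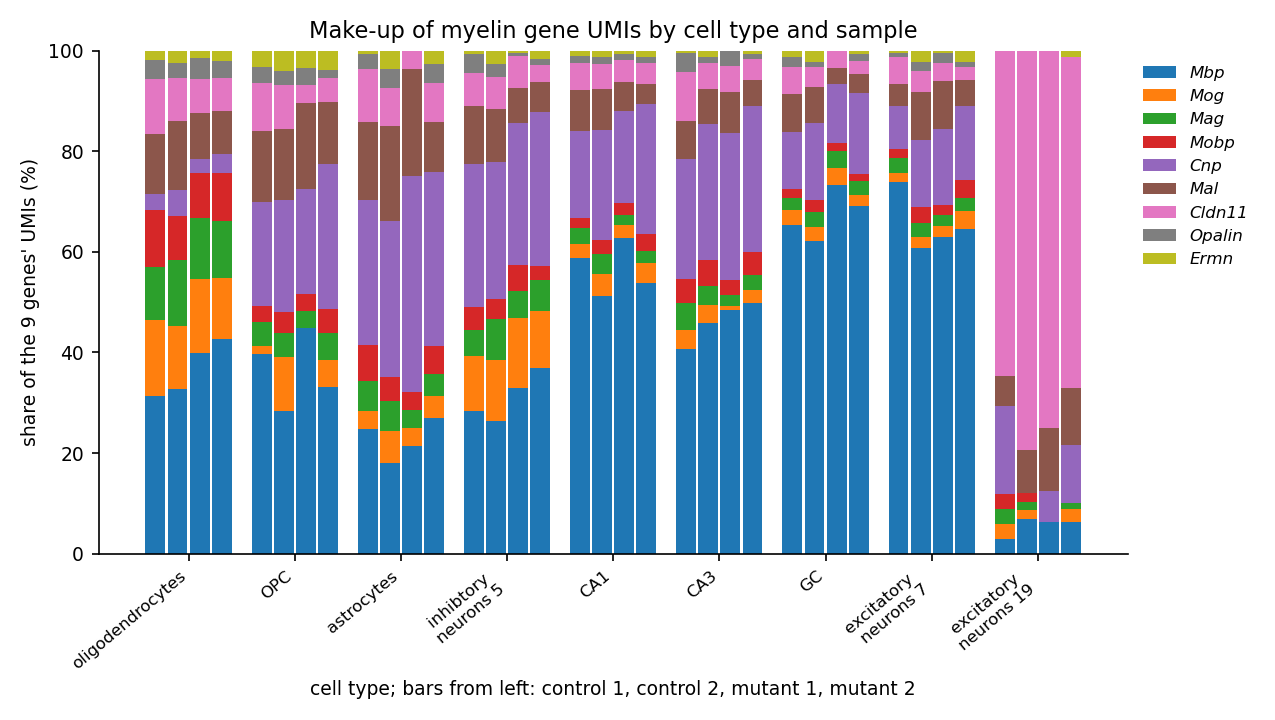
Share of the 9 genes' UMIs taken by each gene (stacked colours, %) in 9 cell types, with 1 bar per sample in the order control 1, control 2, mutant 1, mutant 2, after leaving out nuclei of other types with UMIs of 4 or more of the genes. Mbp fills 62.2% to 73.3% of the granule cell bars and 31.3% to 42.8% of the oligodendrocyte bars, and Cldn11 fills 64.7% to 79.3% of the excitatory neurons 19 bars.

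Nuclei of inhibtory neurons 14 and 18 came next to oligodendrocytes for most of the genes. With all nuclei, Mog stood at 32.2 to 72.5 UPM in the first and 4.82 to 108 UPM in the second. These Mog values rested on few nuclei: 5.59% of inhibtory neurons 14 and 8.62% of inhibtory neurons 18 had UMIs of 4 or more of the 9 genes, and without them Mog was at 4.20 to 14.7 UPM and 0 to 13.4 UPM. In inhibtory neurons 14, Mag went from 19.3 to 63.9 UPM with all nuclei to 0 to 9.80 UPM without them. Without them Mal was still at 39.6 to 80.7 UPM (58.0 to 140 UPM with all nuclei). Cldn11 was at 21.0 to 85.8 UPM (56.4 to 99.8 UPM) and Cnp at 34.3 to 54.6 UPM (38.7 to 65.9 UPM). Across all types other than oligodendrocytes, such nuclei numbered 39 and 209 in mutants and 73 and 101 in controls (0.746% to 2.24% of nuclei), with a median of 7758 to 14320 UMIs against 4163 to 8491 in all those nuclei. Of the oligodendrocyte nuclei, 98.3% to 99.7% had UMIs of 4 or more of the genes. No doublet caller was run, and whether the nuclei of other types were doublets was not tested.

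Precursors, which give rise to myelinating cells, had few UMIs of the 9 genes. Mbp stood at 47.8 to 68.4 UPM, Mog at 0 to 18.2 UPM, Mag at 5.26 to 7.96 UPM and Ermn at 4.10 to 6.82 UPM in these nuclei. Mbp was seen in 10.6% to 14.5% of them and Mag in 1.12% to 2.99%, at a median depth of 2030 to 3609 UMIs. Granule cells, which should lack both genes' myelin transcripts, had Mbp in 32.5% to 54.2% and Mag in 1.11% to 3.34% of nuclei at 4242 to 7688 UMIs. With each nucleus thinned to 1000 UMIs, Mag was seen in 0.677% to 1.28% of precursors and 0.249% to 1.11% of granule cells, ranges that overlapped, and Mbp in 4.29% to 6.84% and 7.57% to 9.50%.

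The genes whose pattern over the 72 profiles (18 types in 4 samples) was most like the mean of the 9 included Tmem98 (Pearson r = 0.91), Gm12324 (0.89), Gm44866 (0.89) and Gm13905 (0.88), among 16849 genes compared on the log2(UPM + 1) scale. The profiles share libraries, so these values describe the pattern only. By rank correlation they included Apod, Pllp, Gng11 and Tmem234. Of the 9 genes, Mag was closest to the mean of the other 8 (r = 0.92), and Cldn11 (0.76), Cnp (0.78) and Mal (0.79) were the least close.

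The promoters of the 9 genes are shown for Mal and Cldn11, the members with an unadjusted p below 0.05 in oligodendrocyte nuclei in the comparisons that follow, and for 3 members with matches to the motifs searched. RefSeq promoter sequence (GRCm38.p6) was held for 8 of the 9 genes, Mbp being the exception. In the 250 bases before each start, 3 motifs were searched on both strands: CTGGNAC, close to the letters bound by Myrf, the transcription factor of myelin gene activation, and ACAAAG and ACAAT, which begin with the same letters and are close to those bound by Sox proteins such as Sox10. CTGGNAC was found for 3 of 8 genes (Mog, Mag and Cnp) and in 17.9% of 27025 genes in the table, ACAAAG for 4 of 8 (Mag, Mobp, Cnp and Opalin) and in 18.6%, and ACAAT for 1 of 8 (Ermn) and in 30.9%. Each sequence below runs 5′ to 3′ on the gene's own strand, in lower case with the motif matches, on either strand, in capitals. They are chr2:127656696-127656945 (minus strand), chr3:31149670-31149919 (plus strand), chr17:37023399-37023648 (minus strand), chr9:120149492-120149706 (plus strand, ending before the first annotated base of the gene) and chr19:41077114-41077363 (minus strand).
Mal: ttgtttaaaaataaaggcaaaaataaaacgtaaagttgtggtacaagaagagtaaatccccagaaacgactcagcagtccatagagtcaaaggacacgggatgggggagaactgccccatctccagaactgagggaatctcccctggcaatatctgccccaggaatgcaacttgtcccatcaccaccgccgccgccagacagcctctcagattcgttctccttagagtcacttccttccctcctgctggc
Cldn11: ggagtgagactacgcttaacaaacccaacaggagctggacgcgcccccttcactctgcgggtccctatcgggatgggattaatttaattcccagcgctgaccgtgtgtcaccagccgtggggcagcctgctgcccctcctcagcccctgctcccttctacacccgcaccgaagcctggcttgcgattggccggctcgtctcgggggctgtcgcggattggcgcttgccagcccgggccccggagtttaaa
Mog: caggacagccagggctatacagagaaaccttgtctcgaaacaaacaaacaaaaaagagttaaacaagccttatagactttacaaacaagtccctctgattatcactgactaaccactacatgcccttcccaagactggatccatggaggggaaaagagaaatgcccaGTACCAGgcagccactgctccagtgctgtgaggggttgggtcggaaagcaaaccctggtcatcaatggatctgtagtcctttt
Mobp: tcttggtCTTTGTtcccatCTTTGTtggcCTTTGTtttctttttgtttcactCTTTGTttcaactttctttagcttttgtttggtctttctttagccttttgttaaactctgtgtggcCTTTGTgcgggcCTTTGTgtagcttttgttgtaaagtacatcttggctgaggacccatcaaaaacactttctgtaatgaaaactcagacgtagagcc
Opalin: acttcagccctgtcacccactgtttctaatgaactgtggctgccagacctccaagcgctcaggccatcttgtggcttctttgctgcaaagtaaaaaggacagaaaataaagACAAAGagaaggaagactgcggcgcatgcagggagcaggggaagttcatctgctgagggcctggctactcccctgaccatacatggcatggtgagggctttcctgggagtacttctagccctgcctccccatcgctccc
Mal and Cldn11 had none of the 3 motifs in this window. Mog had 1 CTGGNAC match starting 83 bases before the start, and Opalin had 1 ACAAAG match 139 bases before it. Mobp had 6 ACAAAG matches starting between 243 and 120 bases before its RefSeq start. That start lies past the end of the printed Mobp sequence, since the window searched ran to chr9:120149741, so these distances are not counted from the printed end. A match is a description of the letters, not a site of binding.

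Bulk RNA-seq asked whether the amount of myelin gene RNA in the hippocampus differed between the genotypes. All 9 genes had a higher mean in the mutants, by 1.11 to 1.36 times, but 0 of 9 passed the call rule of a fold change above 3 with an adjusted p (FDR) below 0.05 in edgeR's quasi-likelihood test, a rule that 0.218% of 20687 genes passed. None of the 9 passed the same rule in DESeq2. In edgeR none passed an FDR below 0.05 alone either, which 1.21% of genes did, and in DESeq2 only Mal did (FDR = 0.0196). At an unadjusted p below 0.05 in edgeR, 1 of the 9 (Mal) passed, as did 18.8% of all genes. The order of the 4 libraries was nearly the same for each gene. In all 9 genes mutant replicate 1 was the highest library and control replicate 2 the lowest, an order found in 11.3% of all genes tested, and in 8 of 9 control replicate 1 lay above mutant replicate 2. In bulk tissue the number of oligodendrocytes and the amount of RNA per oligodendrocyte cannot be told apart.

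Mbp, encoded on chromosome 18 (82475146 to 82585637, GRCm38, plus strand), was the most abundant of the 9, at 2239 and 1551 CPM in the mutants and 1722 and 1312 CPM in the controls. The groups overlapped, and the log2 fold change was 0.32 ± 0.21 (SE, n = 2 per group; 95% interval -0.21 to 0.85; edgeR FDR = 0.476). Mobp (chr9:120149707-120181484, plus strand) stood at 819 and 589 CPM in mutants and 632 and 466 CPM in controls, with a log2 fold change of 0.36 ± 0.20 (-0.16 to 0.88; FDR = 0.420). Cnp (chr11:100574904-100591729, plus strand) stood at 259 and 200.3 CPM against 220.2 and 172 CPM, a log2 fold change of 0.23 ± 0.16 (-0.19 to 0.64; FDR = 0.526). For these 3 proteins of the cytoplasmic face, the mutant libraries did not separate from the controls, and the intervals spanned 0.

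The surface proteins gave the same picture. Mog (chr17:37010743-37023398, minus strand) was at 55.5 and 40.9 CPM in mutants and 44.1 and 33.2 CPM in controls (log2 fold change 0.32 ± 0.19; FDR = 0.445). Mag (chr7:30899176-30914873, minus strand) was at 159 and 121 CPM in mutants and 122 and 95.4 CPM in controls (0.37 ± 0.17; FDR = 0.328). The 2 groups overlapped for both genes, for Mag by less than 1 CPM.

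Mal (chr2:127633226-127656695, minus strand) was the 1 member whose bulk groups did not overlap, at 205 and 174 CPM in the mutants and 158 and 137 CPM in the controls; mutants lay above controls for 25.8% of all genes tested and below for 25.4%. Its log2 fold change was 0.36 ± 0.11 (95% interval 0.09 to 0.63; edgeR unadjusted p = 0.0193, FDR = 0.181). Cldn11 (chr3:31149920-31164324, plus strand) was at 138 and 105 CPM in mutants and 106 and 91.6 CPM in controls, a log2 fold change of 0.30 ± 0.14 (-0.07 to 0.67; FDR = 0.346). The groups met within 1 CPM, since mutant replicate 2 and control replicate 1 were nearly level.

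Opalin and Ermn were the least abundant members per transcript length. Opalin (chr19:41061710-41077113, minus strand) was at 18.0 and 10.3 CPM in mutants and 12.6 and 8.32 CPM in controls, and its log2 fold change of 0.44 ± 0.32 (-0.38 to 1.25; FDR = 0.532) was the largest and the least precise of the 9. Ermn (chr2:58045113-58052864, minus strand) was at 56.2 and 43.2 CPM in mutants and 49.8 and 39.5 CPM in controls (0.15 ± 0.16; FDR = 0.681). Per transcript length, the order in the authors' TPM values was Mbp (1478 to 2260), Mobp (390 to 626) and Cnp (153 to 207) in every library. Mag (96.2 to 149), Cldn11 (107 to 148) and Mal (107 to 146) followed and did not separate from each other, and Mog (49.0 to 70.6), Ermn (23.4 to 30.4) and Opalin (9.90 to 19.6) came last.

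**Figure D3:**
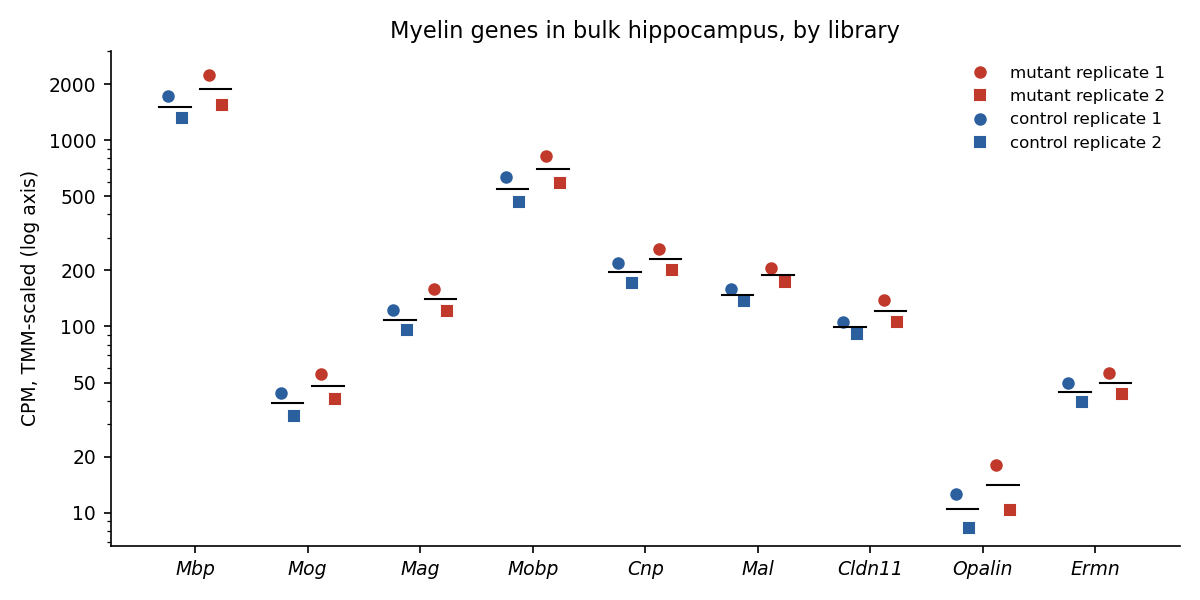
CPM of each gene in the 4 bulk libraries (points; circles are replicate 1 and squares replicate 2, blue controls and red mutants) on a log axis, with the group mean as a black line. In every gene the red circle is highest and the blue square lowest; Mal is the gene in which both red points, 205 and 174 CPM, lie above both blue points.

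Within replicate number, which also compares libraries with the same Xist and Ddx3y pattern, the mutant was above the control for all 9 genes in both comparisons. The ratio was 1.13 to 1.44 (median 1.3) for replicate 1 and 1.09 to 1.27 (median 1.23) for replicate 2, whereas over all genes tested the median ratio was 1.00 in each and both ratios were above 1 in 33.1% of genes. For Mal the ratios were 1.29 and 1.27, for Cldn11 1.303 and 1.15 and for Mbp 1.301 and 1.18. Each is the ratio of 1 library to another and has no replicate error.

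The median log2 fold change of the 9 genes was 0.32, beside 0.01 for all genes tested. Without mutant replicate 1 the median was 0.08 and 7 of 9 genes were above 0. Markers of other cell types also differed with genotype in these libraries. The 5 granule cell markers summed to 76.0 and 70.2 CPM in mutants and 366 and 375 CPM in controls, all 5 being lower in both mutants. The 8 choroid plexus markers summed to 726 and 5553 CPM in mutants and 127 and 68.3 CPM in controls, all 8 being higher. The 3 inhibitory neuron markers, all higher, summed to 636 and 685 CPM against 573 and 551 CPM. The 6 astrocyte markers, 2 of them lower in both mutants, summed to 3920 and 3540 CPM against 4466 and 4583 CPM. The groups overlapped for the sum of 6 meninges markers, at 124 and 499 CPM in mutants and 128 and 153 CPM in controls. The part of all these markers' cell types in the bulk values of the myelin genes was not tested.

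Other genes of the lineage were read from 6 lists, 75 genes in all. None of the 75 passed the call rule in bulk tissue in edgeR, and 23 of 75 had an unadjusted p below 0.05, as did 18.8% of all genes tested. All 23 other myelin and oligodendrocyte proteins and all 12 enzymes of myelin lipid synthesis and metabolism had a log2 fold change above 0. Their medians were 0.20 and 0.24, beside 0.01 for all genes tested. In 20 of the 23 and 8 of the 12, mutant replicate 1 was highest and control replicate 2 lowest, as in 11.3% of all genes. These genes moved together over the same libraries, so they are not separate observations. Ugt8a, which makes galactocerebroside, was at 50.6 and 42.5 CPM in mutants and 44.7 and 35.3 CPM in controls. The regulators were closer to 0: 9 of 10 transcription factors were above it with a median of 0.08, Myrf being at 85.0 and 62.5 CPM in mutants and 65.7 and 53.3 CPM in controls and Sox10 at 26.7 and 24.8 CPM against 27.5 and 23.8 CPM. Genes of newly formed oligodendrocytes (4 of 10 above 0, median -0.03) and of precursors (6 of 10, median 0.05) were on both sides, and Pdgfra, the growth factor receptor of precursors, was at 61.6 and 59.9 CPM against 57.5 and 59.7 CPM. The 10 late and stress-associated genes had a median of 0.17 with 7 above 0. Of the other genes chosen from these lists, Tspan2 (153 and 117 CPM in mutants, 111 and 98.8 CPM in controls, log2 fold change 0.36) and Cspg4 (24.7 and 23.1 CPM, 21.9 and 22.5 CPM, 0.11) had both mutants above both controls. The groups overlapped for Olig2 (log2 fold change 0.20), Aspa (0.25), Bcas1 (0.30), Enpp6 (-0.11), Apod (0.18) and Klk6 (0.66, at 0.238 to 1.49 CPM).

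In the snRNA-seq data, the number of oligodendrocyte nuclei varied far more within than between genotypes. There were 73 of 5304 nuclei (1.38%, exact 95% interval 1.08% to 1.73%) and 1112 of 10460 nuclei (10.6%, 10.0% to 11.2%) in the mutants, and 232 of 6469 (3.59%, 3.15% to 4.07%) and 1029 of 7192 (14.3%, 13.5% to 15.1%) in the controls. The replicate 1 samples had fewer in both genotypes. These totals include granule cells, 90 and 463 nuclei in mutants and 2336 and 2007 in controls. Without granule cells in the total, the shares were 1.40% and 11.1% in mutants and 5.61% and 19.8% in controls. With all nuclei as the total, the log2 fold change in number was -0.57 ± 1.20 (edgeR FDR = 0.809). It changed sign when 1 sample was left out, from -2.70 without mutant replicate 2 to 0.74 without control replicate 2. The intervals of single samples cover counting error only.

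Within oligodendrocyte nuclei the question was whether each gene's share of the nuclear RNA differed. None of the 9 genes passed the rule of a fold change above 2 with an FDR below 0.05, which 0.0892% of 10086 genes passed, all of them lower in the mutants; 2 of the 9, Mal and Cldn11, had an unadjusted p below 0.05, as did 6.51% of all genes, and DESeq2 called none of the 9. Both of these were lower in the mutants, and the groups did not overlap. Mal stood at 1054 and 954 CPM in mutants and 1409 and 1705 CPM in controls, a log2 fold change of -0.64 ± 0.21 (95% interval -1.07 to -0.21; edgeR FDR = 0.463). Cldn11 stood at 807 and 755 CPM in mutants and 1316 and 1076 CPM in controls, a log2 fold change of -0.62 ± 0.21 (-1.06 to -0.17; edgeR FDR = 0.512).

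Mbp lay on the other side. It was at 4667 and 4791 CPM in mutants and 3718 and 4069 CPM in controls, with a log2 fold change of 0.28 ± 0.17 (-0.08 to 0.64; edgeR FDR = 0.873), and both mutants were above both controls. Mobp, at 1054 and 1073 CPM in mutants and 1330 and 1104 CPM in controls, was the third member with both mutants below (log2 fold change -0.19 ± 0.21; FDR = 0.944). Mutants were above controls for 1 of 9 genes and for 16.8% of all genes tested, and below for 3 of 9 genes and for 19.8% of all genes.

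The remaining members overlapped between the genotypes. Mog was at 1709 and 1360 CPM in mutants and 1807 and 1576 CPM in controls (-0.15, 95% interval -0.57 to 0.28). Mag was at 1418 and 1259 CPM in mutants and 1261 and 1616 CPM in controls (-0.11, -0.55 to 0.32). Their edgeR FDRs were 0.952 and 0.963, and the genotypes overlapped for both surface proteins. Cnp was at 320 and 416 CPM in mutants and 388 and 637 CPM in controls (-0.46, -1.01 to 0.09). Opalin was at 487 and 360 CPM in mutants and 448 and 363 CPM in controls (0.03, -0.48 to 0.55). Ermn was at 160 and 237 CPM in mutants and 211 and 308 CPM in controls (-0.33, -0.89 to 0.24). For Cnp and Ermn the replicate 2 samples were higher in both genotypes, by more than the distance between the group means for Ermn.

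**Figure D4:**
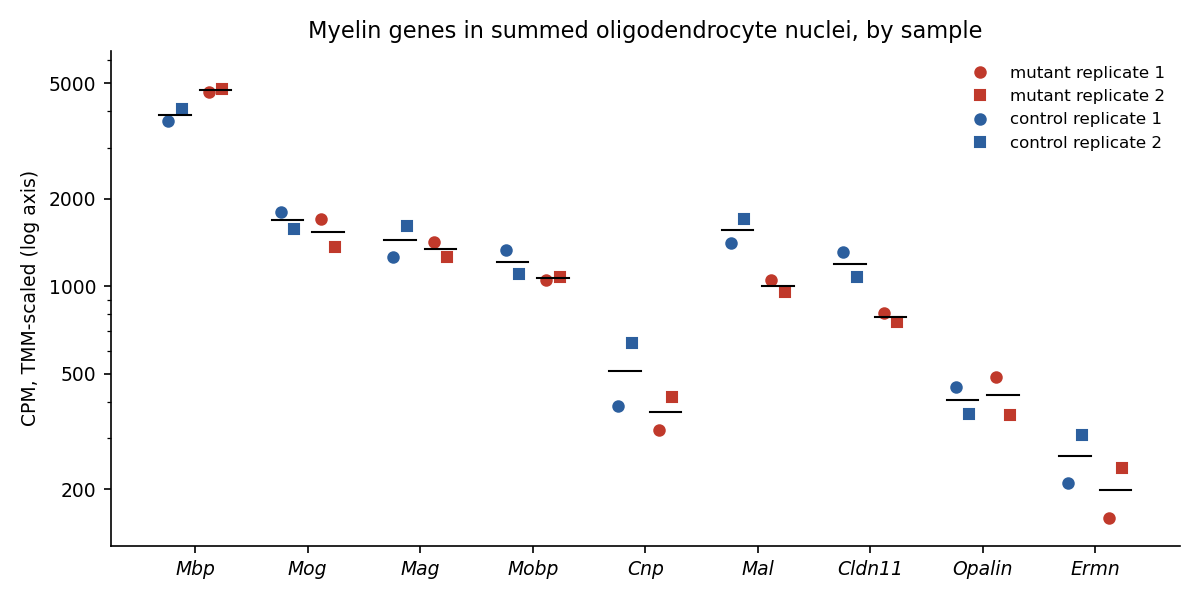
CPM of each gene in the summed oligodendrocyte nuclei of the 4 snRNA-seq samples (circles replicate 1, squares replicate 2, blue controls, red mutants) on a log axis, with the group mean as a black line. For Mal and Cldn11 both red points lie below both blue points, and for Mbp both lie above.

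The share of oligodendrocyte nuclei with at least 1 UMI was lower in both mutants than in both controls for Mal and Cldn11. The same held for Mog (90.4% and 89.1% against 91.4% and 95.5%) and Mobp (82.2% and 80.3% against 85.3% and 84.9%). These shares are counted on the same UMIs and nuclei as the CPM values, so they are no separate observation. How many of all genes separated in this way is not given here, so these members have no background beside them. Mal was seen in 72.6% (exact 95% interval 60.9% to 82.4%) and 80.2% (77.8% to 82.5%) of nuclei in mutants and in 81.0% (75.4% to 85.9%) and 95.1% (93.6% to 96.4%) in controls. Cldn11 was seen in 74.0% (62.4% to 83.5%) and 72.3% (69.6% to 74.9%) in mutants and 81.5% (75.9% to 86.3%) and 87.4% (85.2% to 89.3%) in controls. Median depth was 1732 and 1868 UMIs in mutants and 1727 and 2339 in controls, so each nucleus was also thinned to 1000 UMIs, which no oligodendrocyte nucleus fell short of. Mal was then seen in 58.9% and 58.1% of mutant nuclei and 66.4% and 77.6% of control nuclei, and Cldn11 in 50.7% and 50.7% against 69.0% and 61.4%. At this depth Mog was seen in 75.3% and 71.6% of mutant nuclei and 77.6% and 76.5% of control nuclei, and Mobp, in 68.5% and 60.6% against 69.8% and 59.7%, no longer separated. At 500 UMIs the groups overlapped for Mog (53.4% and 49.6% against 55.2% and 50.9%) and Mobp (42.5% and 40.0% against 40.9% and 38.5%). In granule cells, thinned alike, Mal was seen in 0% to 1.25% and Cldn11 in 0.432% to 1.11% of nuclei. Mbp was seen in 98.6% to 100% of oligodendrocyte nuclei, and Ermn was seen in 28.8% and 35.1% of mutant and 33.6% and 50.9% of control nuclei. With 2 samples per group no exact two-sided permutation test of these shares can go below p = 0.33, and none was run.

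Mal and Cldn11 were also compared outside oligodendrocytes, having been picked for being lower in oligodendrocyte nuclei. Mal passed the filter on low counts in 13 other types, and both mutants were below both controls in 9 of them; Cldn11 passed in 10 other types and was below in 8. Over all genes and the 18 types this occurred in 20.6% of tests. Among the other members it occurred in 3 of 4 other types for Opalin, 2 of 9 for Mog and 2 of 10 for Mag. The counts were 1 of 7 for Mobp, 1 of 4 for Ermn, 0 of 16 for Mbp and 0 of 14 for Cnp. The median log2 fold change over the other types tested was -0.80 for Mal and -0.50 for Cldn11. Examples for Mal are astrocytes, at 17.2 and 13.9 CPM in mutants and 23.3 and 28.3 CPM in controls, and inhibtory neurons 5, at 6.95 and 7.85 CPM against 12.5 and 13.6 CPM. The types come from the same 4 samples, so they are not separate replicates. These tests kept the nuclei with UMIs of 4 or more of the 9 genes. Without such nuclei the median CA1 level went from 8.763 to 4.703 UPM for Mal and from 7.543 to 3.564 UPM for Cldn11. In granule cells the medians went from 8.499 to 8.235 UPM and from 5.366 to 5.144 UPM. The genotype difference of Mal and Cldn11 was not tested without such nuclei. In OPC, the closest relatives, Mal was at 26.6 and 18.2 CPM in mutants and 18.2 and 23.5 CPM in controls and the groups overlapped.

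Of the 96 tests of a member in a cell type, none passed an FDR below 0.05 in edgeR, which 0.218% of all tests over the 18 types passed, and 8 had an unadjusted p below 0.05, as did 9.31% of all those tests. The lowest FDR belonged to Mbp in mossy cells (MC), the excitatory cells of the dentate hilus. Mbp was at 114 and 77.5 CPM in mutants and 31.5 and 28.5 CPM in controls, from 21 and 72 UMIs against 13 and 16 UMIs (log2 fold change 1.57 ± 0.36; edgeR FDR = 0.069). Of these nuclei, 2 of 27 and 3 of 89 in mutants and none in controls held UMIs of 4 or more of the 9 genes. Without them Mbp went from 112.5 and 77.2 UPM to 59.7 and 38.0 UPM in mutants, from 10 and 33 UMIs, beside 31.6 and 28.9 UPM in controls. Among granule cells Mbp was at 105 and 120 CPM in mutants and 88.8 and 89.9 CPM in controls (0.36 ± 0.17; FDR = 0.334).

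Mal lay on opposite sides of 0 in the 2 assays. It was higher in both mutants in bulk tissue (log2 fold change 0.36) and lower in both mutants in oligodendrocyte nuclei (-0.64), and Cldn11 had log2 fold changes of 0.30 and -0.62. Mbp was above 0 in both (0.32 and 0.28). Bulk values are shares of all RNA of the tissue and nuclear values shares of the RNA of 1 nuclear class, so the 2 assays do not measure the same quantity. They were made from different mice, and the difference between assays was not tested.

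**Figure D5:**
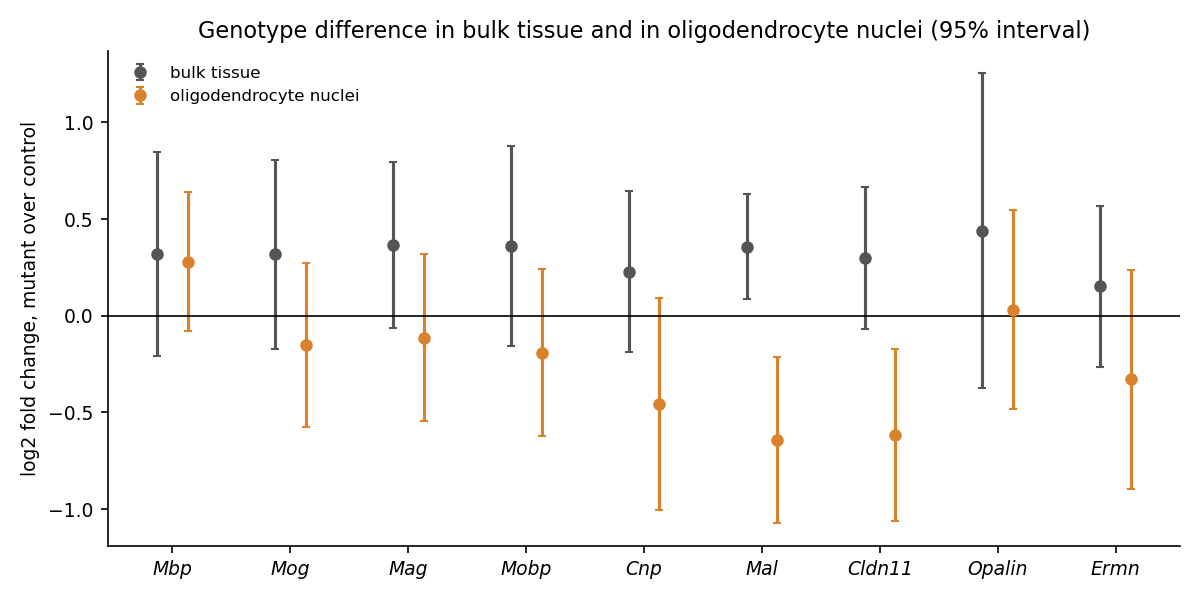
Log2 fold change of mutant over control with its 95% interval (bars) for each gene in bulk tissue (grey) and in oligodendrocyte nuclei (orange). All grey points are above 0; the orange intervals of Mal (-1.07 to -0.21) and Cldn11 (-1.06 to -0.17) lie below 0.

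The 9 genes that were called in oligodendrocyte nuclei held 1 gene of the 64 tested from the lineage lists. Cd9, a tetraspanin found in myelin, was at 109 and 121 CPM in mutants and 317 and 395 CPM in controls and fell by 1.61 ± 0.26 on the log2 scale (edgeR FDR = 0.0110). It was called in OPC as well, at 240 and 188 CPM in mutants and 493 and 534 CPM in controls (log2 fold change -1.33 ± 0.18; edgeR FDR = 0.00203), where 0.132% of genes were called. In bulk tissue Cd9 was at 48.8 and 58.1 CPM in mutants and 38.4 and 38.0 CPM in controls (0.49 ± 0.09; FDR = 0.095). Myrf was at 262 and 198 CPM in mutants and 260 and 213 CPM in controls within oligodendrocyte nuclei. Median log2 fold changes were -0.16 for 21 other myelin and oligodendrocyte proteins, -0.10 for 12 enzymes and -0.10 for 10 transcription factors, beside -0.01 for all genes tested and -0.19 for the 9 members. They were 0.12 for 8 genes of newly formed oligodendrocytes, -0.20 for 8 late and stress-associated genes and 0.72 for 5 precursor genes. Of the same chosen genes, Apod, a lipid-binding lipocalin, was at 371 and 388 CPM in mutants and 499 and 698 CPM in controls (-0.66; edgeR FDR = 0.557), and Klk6 at 7.27 and 4.97 CPM against 11.1 and 17.4 CPM (-1.60; FDR = 0.514). Both mutants were above both controls for Tspan2 (log2 fold change 0.25) and Cspg4 (0.93, at 6.66 to 29.1 CPM), and the groups overlapped for Olig2 (-0.11), Aspa (0.06), Bcas1 (0.10), Enpp6 (0.11), Sox10 (-0.08) and Ugt8a (-0.11).

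The other called genes were Wls itself, Traf5, P4ha1, Ubb, Ahsa1, Hspa1b, Hspa1a and Stip1. They are named because they were called, after their values were seen. Of these, 5 (Hspa1a and Hspa1b, which encode inducible Hsp70, the co-chaperones Stip1 and Ahsa1, and the ubiquitin gene Ubb) belong to the heat-shock response. Summed, these 5 stood at 71.7 and 177 UPM in mutant and 592 and 669 UPM in control oligodendrocyte nuclei, and both mutants were below both controls in all 18 cell types. By type, 17.7% to 26.1% of single genes tested had both mutants below. The 5 were chosen for being lower in oligodendrocyte nuclei, so the result in that type was fixed by the choice. The types come from the same samples and are not separate replicates. In bulk tissue the groups overlapped for Hspa1a (11.4 and 10.4 CPM in mutants, 11.1 and 11.7 CPM in controls), Hspa1b and Ubb. Both mutants were above both controls for Ahsa1 (94.9 and 94.7 CPM against 88.8 and 87.6 CPM) and Stip1 (154 and 161 CPM against 149 and 144 CPM). Summed markers of other cell types also differed between the oligodendrocyte samples: the 8 choroid plexus markers summed to 7.17 and 264 UPM in mutants and 83.0 and 21.6 UPM in controls, the 5 precursor markers to 93.2 and 99.9 UPM against 49.3 and 66.7 UPM, and the 3 excitatory neuron markers to 129 and 199 UPM against 325 and 312 UPM. The part of these differences in the Mal and Cldn11 values was not tested.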

How the data were processed

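Bulk RNA-seq was given by the authors as RSEM 1.3.0 tables (Bowtie2 2.2.9, mm10) with expected counts and TPM per gene, plus a deposited matrix of scaled counts (a signal). For snRNA-seq the deposited matrices held UMI counts per nucleus (Cell Ranger 3.1.0, 10x 3' v3) with the authors' cell type of each nucleus; no deposited nucleus had under 1500 UMIs.

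Expected counts were rounded; UMI counts were summed per sample and cell type. Genes were filtered (filterByExpr), TMM-scaled and tested with the quasi-likelihood test of edgeR 4.0.16, with Benjamini-Hochberg adjustment over all genes; CPM values are TMM-scaled and UPM values are not. SE is the log2 fold change divided by the root of F. The bulk and oligodendrocyte fits were tested on simulated data. Each sample is 1 mouse. The genes printed are the 9 members, Wls, Xist, Ddx3y, the genes most alike (5 by each measure), genes chosen from the lineage lists, and called genes, some of which are not reported here; the genes called in oligodendrocyte nuclei were named after their values were seen. The members and lists were chosen with earlier results of these data known. Alternatives were RLE and library-total scaling, DESeq2 1.42.0, limma 3.58.1 on the deposited matrix, no filter, a replicate block, leaving out each sample, leaving out the 10% of nuclei with most UMIs, and thinning to 500 or 1000 UMIs. Replicate numbers mark no stated pairing. No doublet caller was run.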

Additional observations from a re-analysis of the deposited data

Results flagged for a closer look

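Mal was higher in both mutants than in both controls in bulk tissue (log2 fold change 0.36) and lower in both mutants than in both controls in oligodendrocyte nuclei (log2 fold change -0.64). Cd9, a gene of the lineage lists called in oligodendrocyte nuclei, had a log2 fold change of 0.49 in bulk tissue and -1.61 in oligodendrocyte nuclei. Ahsa1 and Stip1, of the other genes called lower in oligodendrocyte nuclei, also had both bulk mutants above both bulk controls (log2 fold change 0.10 for each), so the pattern was not particular to Mal and Cd9. These were singled out because every sample moved one way in one material and the opposite way in the other. The difference between the 2 materials was not tested.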

How the results depend on the processing

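No member was called under any alternative with the fold minimum, in bulk tissue or in oligodendrocyte nuclei. With an FDR below 0.05 and no fold minimum, Mal passed in bulk tissue in DESeq2 (FDR = 0.0196) and Mal and Mag passed without the filter on low counts in edgeR (FDR = 0.00554 and 0.0297), and Cldn11 passed without mutant replicate 2 (FDR = 0.04999); over its alternatives the FDR of bulk Mal ran from 0.00554 to 0.720. Of 189 values for single members under alternatives, 180 kept direction and side of the threshold and 9 changed sign. When 1 library was left out, bulk Opalin ran from -0.016 (without mutant replicate 1) to 0.78 and bulk Ermn from -0.049 (without mutant replicate 1) to 0.33, being also below 0 without control replicate 2 (-0.0068). In nuclei Mog ran from -0.33 to 0.031 (without mutant replicate 2). Without control replicate 2, Mag was at 0.12 (lowest value -0.31), Ermn at 0.040 (lowest -0.71) and Opalin at -0.080, and Opalin ran from -0.18 (without mutant replicate 1) to 0.29 and was at -0.013 without the filter. The causes were not tested. The median bulk log2 fold change ran from 0.08 to 0.53 when 1 library was left out. In nuclei the number of members above 0 was 1 without the filter and ran from 1 to 3 when 1 sample was left out; Mal ran between -0.80 and -0.46 and Cldn11 between -0.72 and -0.50. The number of oligodendrocyte nuclei ran from -2.70 to 0.74 (log2) when 1 sample was left out, being 0.25 without mutant replicate 1 and 0.74 without control replicate 2. With Spearman in place of Pearson correlation, 1 of the 5 genes most alike was shared.

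Replicate numbers were shared between genotypes without a stated pairing, and the deviations of same-numbered samples correlated at 0.02 in bulk tissue and 0.14 in oligodendrocyte nuclei. With the replicate block the median log2 fold change was 0.32 in bulk tissue and -0.17 in nuclei, and the log2 change in number of oligodendrocyte nuclei was -0.90. Mal in nuclei had a log2 fold change of -0.66 and an FDR of 0.0434 with the block (0.0434 to 1.00 over its alternatives), without reaching a fold change of 2. The within-number ratios in bulk tissue and the mossy cell values without nuclei holding 4 or more of the genes were added after seeing the data. With 73 oligodendrocyte nuclei, mutant replicate 1 is the least precise sample.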
